A study of Mus musculus with 12 samples.

Results

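Voltage-gated sodium channels carry the inward current that starts and propagates the action potential of neurons. An α subunit forms the pore and senses the voltage, and β subunits are single-pass membrane proteins that tune its gating and its place in the membrane and also act in cell adhesion. The set of subunits changes as the brain matures, Scn3a being best known from the embryonic and newborn brain and Scn1a, Scn8a and Scn4b from the more mature one. The genes described here are the members Scn1a, Scn2a1, Scn3a, Scn8a and Scn9a (α subunits) and Scn2b, Scn3b and Scn4b (β subunits), taken by their symbols in the deposited table. No measured value entered that rule, but the members were chosen with earlier results of these data known. Of these 8 genes, 7 have probesets of the main type in the table, 72 in all, among 221417 main probesets of 17550 genes. Scn2a1, the other main α subunit of the newborn brain, was not analysed here.

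The study asked what the loss of the protein kinase KIS, encoded by Uhmk1, changes in the newborn brain. Total RNA of 12 whole brains of newborn females was hybridized to exon arrays, 6 from KIS +/+ (wildtype) mice and 6 from KIS -/- (KIS-ko) mice, with 1 animal of each genotype from each of 6 litters. No treatment was given, and the mice came from a knock-out line backcrossed to C57BL6/N. An exon array measures a transcript through probesets, small groups of probes that lie in 1 exon or in a part of it, and reports for each the signal, a linear intensity. A whole powdered brain holds all of its cell types, so that fewer cells of a type and less RNA per cell cannot be told apart in any value below.

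The gene value used below is the mean over the probesets of a gene of log2(signal + 16), and a difference is that of the KIS-ko animal minus its wildtype littermate. Uhmk1 served as the check of the labels: wildtype brains had a gene value of 10.97 ± 0.057 (SD, n = 6) and KIS-ko brains one of 8.85 ± 0.15, lower in 6 of 6 litters (limma, adjusted p = 2.9e-07). The neuronal markers Tubb3, Snap25, Syt1 and Stmn2 had gene values between 12.6 and 13.4 in wildtype, with differences from -0.075 to 0.017. The arrays themselves did not stay level: the median gene was lower in KIS-ko in 4 of 6 litters, by 0.036 for the fitted median over all genes, and it was higher by 0.071 in litter 4 and lower by 0.11 in litter 6. For this reason the differences of the sodium channel genes are given below also relative to the median gene of each litter or after another scaling of the arrays.

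The sequence upstream of the start site was taken from RefSeq (GRCm38.p6) for Scn1a and Scn2b, an α and a β subunit gene and those with the most negative differences between the genotypes. The windows hold the 250 bases before the annotated start, and capitals mark CG dinucleotides. The Scn1a window is chr2:66440838-66441087 on the minus strand, and the Scn2b window is chr9:45117626-45117875 on the plus strand.
Scn1a: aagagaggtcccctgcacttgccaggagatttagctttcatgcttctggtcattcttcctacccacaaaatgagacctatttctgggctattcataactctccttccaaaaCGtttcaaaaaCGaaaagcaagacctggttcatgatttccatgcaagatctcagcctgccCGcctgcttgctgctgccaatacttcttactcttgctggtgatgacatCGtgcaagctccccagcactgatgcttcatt
Scn2b: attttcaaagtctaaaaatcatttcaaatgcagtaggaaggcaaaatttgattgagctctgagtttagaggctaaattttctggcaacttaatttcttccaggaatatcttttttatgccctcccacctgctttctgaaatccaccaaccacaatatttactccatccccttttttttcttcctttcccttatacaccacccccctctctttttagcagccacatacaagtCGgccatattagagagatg
The Scn1a window holds 4 CG dinucleotides and the Scn2b window 1, against a median of 6 over 32851 such windows of the genome. Of the other members with a window, that of Scn9a holds 5, that of Scn4b 23, those of Scn2a1 2 and 9, and those of Scn8a 30 (upstream start) and 9. The windows of the members thus run from 1 to 30 CG dinucleotides. The expression measured below lies downstream of these windows, and no measurement of the promoters themselves was made.

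Among the α subunit genes, Scn1a showed the most negative difference. Scn1a encodes the α subunit that is prominent in fast-spiking inhibitory neurons, and its loss of function is known to cause epilepsy. Of its 9 probesets 4 exceeded, in mean signal, the intron limit, set at the 95th percentile of probesets placed in introns as controls (713). The probesets lie on chromosome 2 between 66118753 and 66155900 on the minus strand in the positions of the deposited table, whose genome build is not given in the sources used here. Together they span 21.8% of the length of the RefSeq gene, so that the value of Scn1a speaks for a part of it. The gene value in wildtype was at the lowest 9.24, at the median 9.38 and at the highest 9.50, and in KIS-ko 8.99, 9.20 and 9.55. The KIS-ko values were the more scattered and enclosed those of wildtype on both sides, and the highest KIS-ko value was that of litter 4. The difference was -0.16 (SE 0.088, 95% CI from -0.36 to 0.035), a fold change of 0.895, and it did not pass the test (limma, unadjusted p = 0.098, adjusted p = 0.685).

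The difference of Scn1a was negative in 5 of 6 litters. It was -0.26, -0.15, -0.085, 0.31, -0.28 and -0.50 in litters 1 to 6. Litter 4 thus stood against the others, and the median gene of that litter was also higher in KIS-ko. Relative to the median gene of each litter the difference was -0.12 ± 0.21 (SD, n = 6) and again negative in 5 of 6. Without litter 4 the difference was -0.26 with an unadjusted p of 0.0033 and an adjusted p of 0.126 (limma), and in that comparison 22.6% of all genes had an unadjusted p under 0.05. Without litter 6 the difference was -0.093 with an unadjusted p of 0.302 (limma), and without any 1 of the other litters the p lay between 0.112 and 0.202.

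Scn3a, the α subunit gene of the immature brain, had a gene value in wildtype at the lowest 10.33, at the median 10.54 and at the highest 10.69, and in KIS-ko 10.24, 10.38 and 10.76. Litter 4 was the highest in both genotypes and litter 5 the lowest in both. The difference was -0.094 (SE 0.056, 95% CI from -0.22 to 0.031), negative in 4 of 6 litters (limma, unadjusted p = 0.125, adjusted p = 0.685). Relative to the median gene it was -0.057 ± 0.098. Of its 5 probesets 3 were above the intron limit, and all lie within 5291 bases (chromosome 2, 65331215 to 65336505, minus strand), which is 4.79% of the length of the RefSeq gene, so that the value of Scn3a speaks for a small part of the gene.

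Scn8a, which encodes the α subunit that comes to dominate axon initial segments and nodes of Ranvier, had the most probesets, 33 (chromosome 15, 100766818 to 100870902, plus strand), of which 16 were above the intron limit. Its gene value in wildtype was at the lowest 9.56, at the median 9.71 and at the highest 9.75, and in KIS-ko 9.53, 9.64 and 9.83. The ranges overlapped almost wholly. The difference was -0.032 (SE 0.053, 95% CI from -0.15 to 0.086), negative in 3 of 6 litters, with an adjusted p of 0.823 (limma). With arrays centred on their medians it was 0.024 and with arrays quantile-normalized again 0.015, so that its sign depended on the scaling.

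Scn9a, best known from peripheral sensory neurons, was represented by 1 probeset (chromosome 2, 66321651 to 66321759, minus strand), whose mean signal of 293 lay below the 95th percentile and above the median (114) of the intron controls. Its gene value in wildtype was at the lowest 7.69, at the median 8.36 and at the highest 8.54, and in KIS-ko 7.85, 8.19 and 8.53. Both animals of litter 5 were the lowest of their genotype. The difference was -0.097 (SE 0.10, 95% CI from -0.33 to 0.13), negative in 3 of 6 litters, with an adjusted p of 0.742 (limma). Relative to the median gene it was -0.060.

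**Figure D1:**
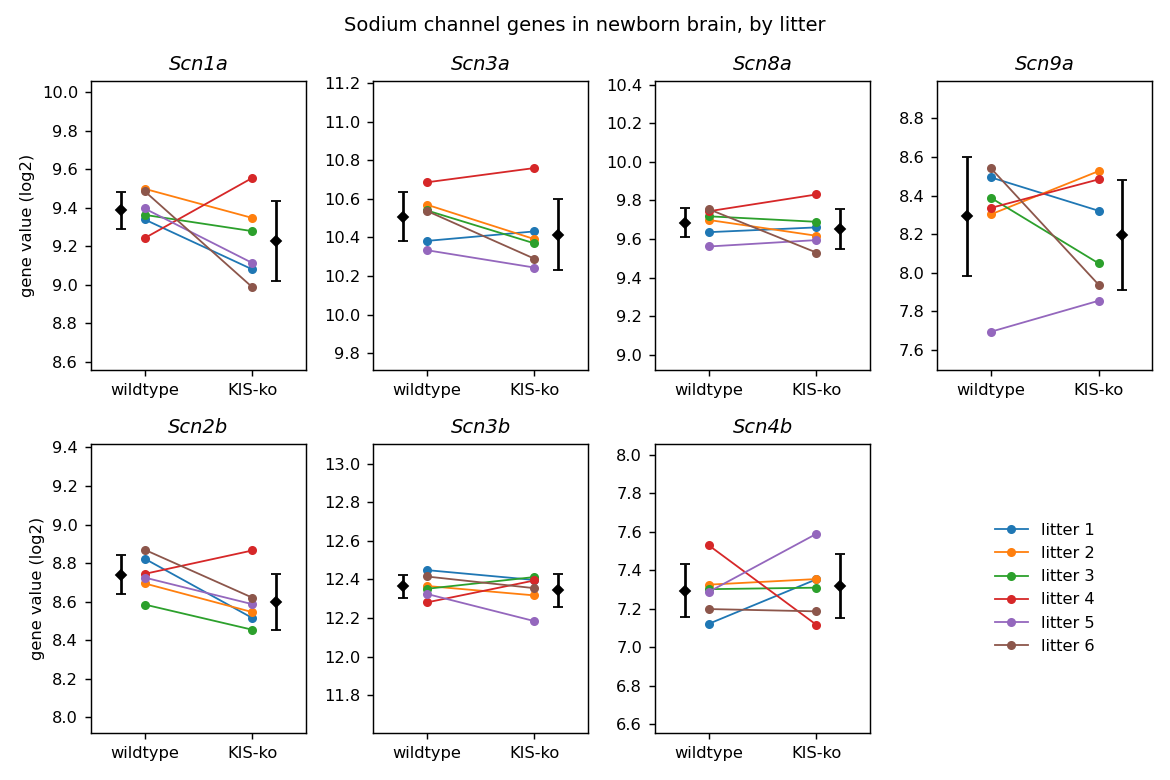
Gene value (mean over probesets of log2(signal + 16)) of the 7 sodium channel genes in the wildtype and KIS-ko animal of each of 6 litters, with lines joining littermates. Black diamonds and bars give the mean and SD of 6 animals, every panel spans the same range of log2 units, and the genotypes overlap in all 7 genes.

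Among the β subunit genes, Scn2b was the member with the lowest p of all 7. Scn2b encodes a β subunit that is bound to the α subunit by a disulfide bridge. Its gene value in wildtype was at the lowest 8.58, at the median 8.73 and at the highest 8.87, and in KIS-ko 8.45, 8.57 and 8.87. In KIS-ko 5 of the values lay below the wildtype median, and the remaining one, of litter 4, was close to the highest wildtype value. The difference was -0.14 (SE 0.060, 95% CI from -0.27 to -0.0099), a fold change of 0.906, with an unadjusted p of 0.038 and an adjusted p of 0.685 (limma), so that it did not pass the threshold of 0.05 over all genes.

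The difference of Scn2b was -0.31, -0.15, -0.13, 0.12, -0.14 and -0.25 in litters 1 to 6, and again litter 4 alone was positive. Relative to the median gene of each litter it was -0.11 ± 0.10 (SD, n = 6), with an unadjusted p of 0.045 (limma, adjusted p = 0.756). It was -0.086 (unadjusted p = 0.069) with arrays centred on their medians and -0.092 (unadjusted p = 0.055) with arrays quantile-normalized again, and the fit without the litter block gave an unadjusted p of 0.055 (limma). In the other direction it was -0.29 (unadjusted p = 0.042) with the median over probesets and -0.20 (unadjusted p = 0.027) with probesets matching 1 place only, and of 18 alternatives with a test 9 had an unadjusted p under 0.05 (limma). Leaving out any 1 of litters 1, 2, 3, 5 and 6 gave unadjusted p-values from 0.069 to 0.133, and leaving out litter 4 gave a difference of -0.19 with an unadjusted p of 0.0030 and an adjusted p of 0.125. Its 7 probesets lie on chromosome 9 between 44926107 and 44937409 on the plus strand. Only the first of them was above the intron limit, in the mean over all 12 arrays.

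Scn3b, whose β subunit is not covalently bound and is abundant in the developing brain, had a gene value in wildtype at the lowest 12.28, at the median 12.36 and at the highest 12.45, and in KIS-ko 12.18, 12.37 and 12.41. These were the most closely grouped values of the 7 genes, with an SD of 0.061 in wildtype and 0.086 in KIS-ko, and 11 of its 12 probesets were above the intron limit (chromosome 9, 40076815 to 40099000, plus strand). The difference was -0.021 (SE 0.050, 95% CI from -0.13 to 0.090), with an adjusted p of 0.878 (limma). It was 0.035 with arrays centred on their medians and 0.0061 with arrays quantile-normalized again.

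Scn4b, whose β subunit is known from Purkinje cells and striatal neurons, had a gene value in wildtype at the lowest 7.12, at the median 7.29 and at the highest 7.53, and in KIS-ko 7.12, 7.33 and 7.59. None of its 5 probesets was above the intron limit (chromosome 9, 44947128 to 44958559, plus strand), so the array gave little measure of this gene in the newborn brain. The difference was 0.024 (SE 0.083, 95% CI from -0.16 to 0.21), with an adjusted p of 0.916 (limma). Relative to the median gene it was 0.061, with the median over probesets -0.076, without litter 1 -0.017, without litter 5 -0.031 and without litters 4 and 6 0.14. It was -0.41 in litter 4 and 0.30 in litter 5, opposite in sign to those of Scn1a in the same litters.

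Taken as counts, 6 of the 7 genes had a negative difference, against 69.8% of all 17279 genes tested, and the median of their differences was -0.094 against -0.036 over all genes. A negative difference in at least 5 of 6 litters was found for 2 of the 7, against 22.5% of all genes. An unadjusted p under 0.05 was found for 1 of the 7, Scn2b, against 6.16% of all genes, or 4.34% when only negative differences are counted. None of the 7 had an adjusted p under 0.05 (limma, the lowest being 0.685), against 0.00579% of all genes, which is Uhmk1 alone. The ranges of the genotypes overlapped in all 7, while 0.208% of all genes had ranges apart. In litter 4, 6 of the 7 genes were higher in KIS-ko, the exception being Scn4b, as were 69.7% of all genes.

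**Figure D2:**
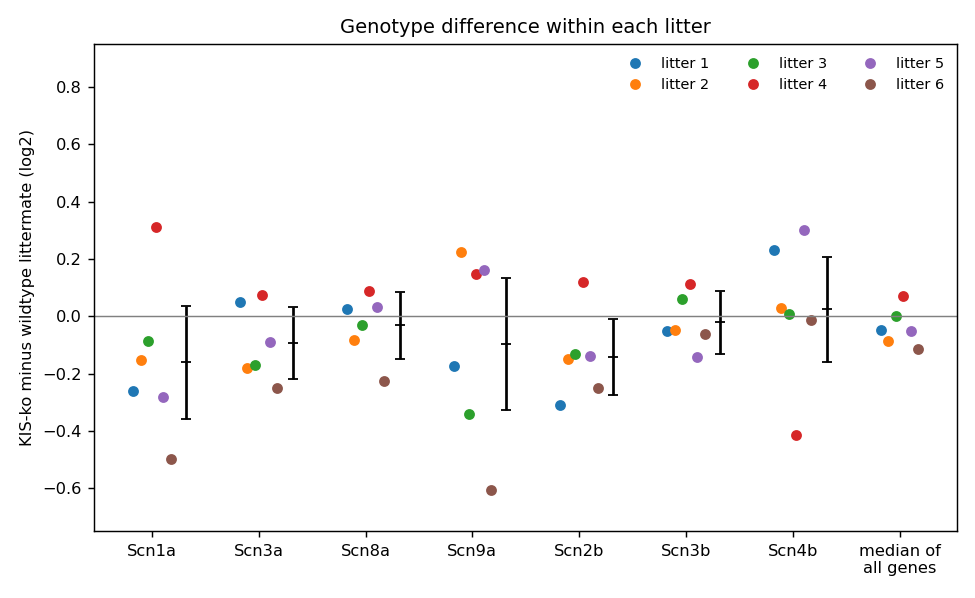
Difference of the gene value (log2, KIS-ko minus wildtype littermate) in each of 6 litters for the 7 sodium channel genes, with the difference of the median gene of each litter at the right. Horizontal dashes with bars give the fitted difference and its 95% CI, which excludes 0 for Scn2b alone, and litter 4 lies above 0 in 6 of the 7 genes.

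The balance of subunits was followed as the difference of 2 gene values on the same array, which cancels any shift that a whole array shares. Since probes differ in their response, the change of such a balance between littermates is given and not its level. The balance of Scn3a over Scn1a, the immature against the mature α subunit gene, changed by 0.066 ± 0.22 (SD, n = 6) in KIS-ko and was higher in 3 of the 6 pairs (p = 0.531 by the exact two-sided permutation test that flips the signs of litters, adjusted over the 2 balances 0.531). In litters 1 to 6 the change was 0.31, -0.028, -0.086, -0.24, 0.19 and 0.25, with no common direction. The balance of Scn3b over Scn2b, the early against the later β subunit gene, changed by 0.12 ± 0.11 and was higher in 4 of the 6 pairs (p = 0.125 by the exact permutation test, adjusted 0.25). The 4 positive changes lay between 0.10 and 0.26 and the other 2 were -0.0075 and -0.0032.

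The mean of the 3 β subunit genes less the mean of the 4 α subunit genes changed by 0.050 ± 0.17 and was higher in 4 of 6 litters, but with the median over probesets in place of the mean it was -0.034. Each mean includes a gene with no probeset above the intron limit. These are Scn4b, at 0.024 the only β subunit gene with a positive difference, and Scn9a, at -0.097. With 6 litters the sign-flip test cannot give a p under 0.03125. This smallest p was reached by the balance of Scn3b over Scn2b when arrays were quantile-normalized again (change 0.098, adjusted p = 0.0625). It was also reached with dim probesets left out (change 0.16, adjusted p = 0.0625), where Scn2b rests on 1 probeset whose mean is above the intron limit in wildtype and not in KIS-ko, so that this setting is not independent of the change. The planned balance of Scn2a1 over Scn8a was not analysed here.

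Along the genes, no probeset of a sodium channel gene differed between the genotypes past the adjusted threshold. Of the 72 probesets 69 were kept by the filter on scatter, and those rejected were 1 each of Scn3a, Scn2b and Scn3b, with mean signals of 35.0, 117 and 244. Of the 72, 35 were above the intron limit, against 41.4% of all main probesets, and 65 match 1 place in the genome according to the table. A negative difference was found for 51 of the 69 kept probesets, against 66.2% of all probesets. It was found for all 9 of Scn1a, all 4 kept of Scn3a, 22 of 33 of Scn8a, 5 of 6 of Scn2b, 9 of 11 of Scn3b and 1 of 5 of Scn4b.

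An unadjusted p under 0.05 was found for 1 of the 69 probesets (limma), against 6.63% of all probesets, and an adjusted p under 0.05 for none, against 0.00487% of all. It is the first probeset of Scn2b (44926107 to 44926168), the only one of that gene whose mean over the 12 arrays was above the intron limit. The mean was above the limit in wildtype (767) and below it in KIS-ko (675). Its signal in wildtype was at the lowest 715, at the median 767 and at the highest 817, and in KIS-ko 629, 645 and 773. The ranges overlapped. The log2 differences were -0.37, -0.19, -0.16, -0.10, -0.20 and -0.072 in litters 1 to 6, all negative. What share of all probesets was lower in 6 of 6 litters was not computed, and 66.2% of all had a negative difference. The difference was -0.18 (SE 0.065, unadjusted p = 0.021, adjusted p = 0.751, limma). The last probeset of the gene (44936052 to 44937409) fell short of that p, with a signal of 537 ± 73 in wildtype and 446 ± 103 in KIS-ko and a difference of -0.27 (unadjusted p = 0.051, limma).

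**Figure D3:**
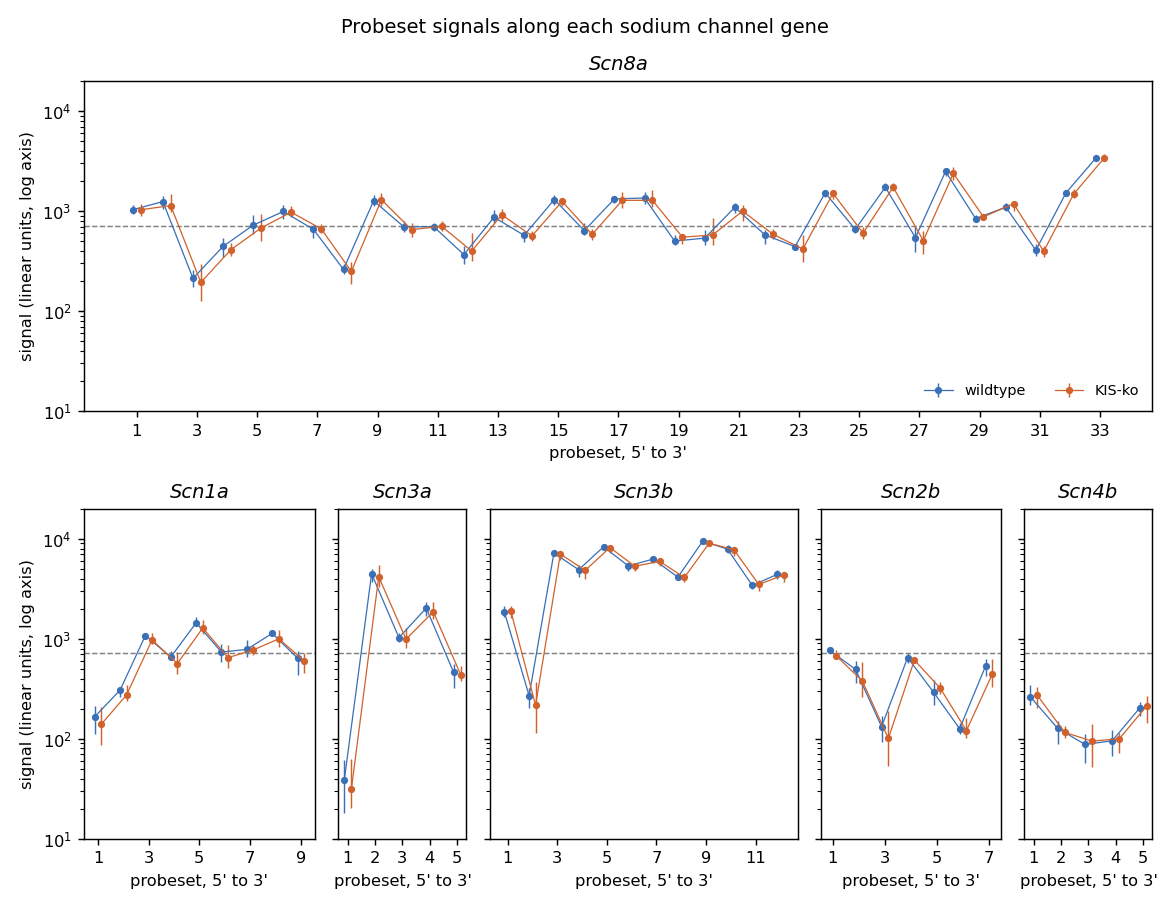
Signal of each probeset (linear units on a log axis) from the 5′ to the 3′ end of the 6 sodium channel genes with more than 1 probeset, in wildtype and KIS-ko; points are means and bars the range of 6 animals, and the dashed line is the 95th percentile of intron controls (713). Rejected probesets are drawn too. The log2 differences of kept probesets are the widest in Scn2b, from -0.40 to 0.15.

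The exon profile was tested as the change of each probeset relative to the mean of the other probesets of its gene, the splicing index, which could be formed for 68 probesets. An unadjusted p under 0.05 was found for 2 of the 68 (limma), against 6.09% of all probesets tested. None passed the adjusted threshold (lowest adjusted p = 0.793), against 0.000985% of all. In Scn8a the probeset 100841523 to 100841621 had a splicing index difference of 0.16 (SE 0.061, unadjusted p = 0.029, adjusted p = 0.803, limma), positive in 5 of 6 litters. Its signal was 502 ± 39 (SD, n = 6) in wildtype and 549 ± 43 in KIS-ko, below the intron limit in both. In Scn4b the probeset 44954767 to 44954919 had a splicing index difference of -0.17 (SE 0.060, unadjusted p = 0.023, limma), negative in 6 of 6 litters. Its signal was 128 ± 22 in wildtype and 116 ± 14 in KIS-ko, which is near the median of intron controls. The shares of all probesets with such counts of litters were not computed.

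The splicing index differences furthest from 0 in the other genes did not reach an unadjusted p of 0.05. In Scn2b it was 0.35 (SE 0.20) for the probeset 44934359 to 44934387, which the table marks as prone to cross-hybridization. In Scn1a it was 0.17 (SE 0.085, unadjusted p = 0.080, limma) for the probeset 66125788 to 66125813. In Scn3b and Scn3a it was 0.063 and -0.043, the smallest such values of the 6 genes.

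The table lists a few probesets under a second transcript accession of their gene, which does not show that they measure that transcript alone. Those of Scn3a and Scn3b share their exon identifier with probesets listed under the main accession. For Scn3a one such probeset was rejected and the other (65331215 to 65332186) had a splicing index difference of 0.031 (SE 0.072). For Scn8a this is the probeset 100790085 to 100790109, with a signal of 723 ± 113 in wildtype and 678 ± 195 in KIS-ko and a splicing index difference of -0.095 (SE 0.12). For Scn3b it is the probeset 40096073 to 40096127, with 4138 ± 171 and 4105 ± 369 and a splicing index difference of 0.0064 (SE 0.062). None of these 3 had an unadjusted p under 0.05 (limma). Whether a probeset lies in a coding exon or a UTR was not analysed here.

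**Figure D4:**
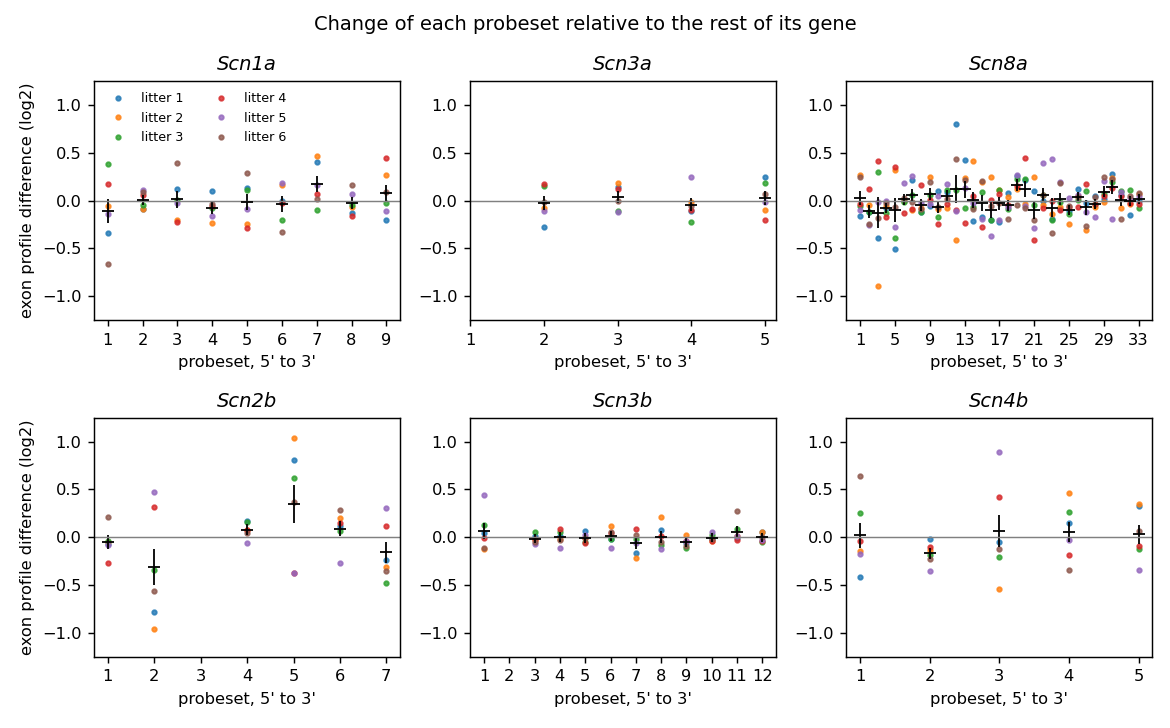
Splicing index difference (log2, KIS-ko minus wildtype littermate, probeset less the mean of the other probesets of its gene) along 6 sodium channel genes; coloured points are litters, and dashes with bars the mean and its SE. Mean differences stay between -0.31 and 0.35, the widest being those of Scn2b, and those of Scn3b lie between -0.059 and 0.063.

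Litters were compared as well, each by the mean of its 2 animals. The mean of the littermates of Scn3a ran from 10.29 in litter 5 to 10.72 in litter 4, and that of Scn9a from 7.77 in litter 5 to 8.41 in litter 2. These were the 2 of 7 genes with an unadjusted p under 0.05 for litter (limma moderated F test, 0.022 and 0.034), against 11.3% of all genes. After adjustment the p-values of Scn3a and Scn9a were 0.348 and 0.393, and none of the 7 genes passed, against 0% of all genes (1955 of 17279 at an unadjusted p under 0.05). Without litter 4 the unadjusted p of Scn3a was 0.284 and without litter 5 it was 0.069, and without litter 5 that of Scn9a was 0.645 (limma). With arrays centred or quantile-normalized again the 2 genes with an unadjusted p under 0.05 were Scn3a and Scn2b. In the other genes the range over litters was from 0.17 for Scn3b to 0.28 for Scn2b.

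Over the 12 arrays, with the median gene of the array subtracted, Scn3a and Scn8a varied together (Pearson r = 0.81), while Scn3b was negatively related to all the other members, with r from -0.44 to -0.14. The arrays share litters and genotypes, so these values describe this set only. The genes most alike each member were picked for that likeness among 5703 or 5704 well measured genes, and r is a description over 12 arrays. They were Tm9sf2 (0.92), Mtdh and Rnpc3 for Scn1a, Ugdh (0.88), Dnajb4 and Jtb for Scn3a, and Cdkl3 (0.87), Adam23 and Atg2b for Scn8a. For Scn9a they were Cdh7 (0.92), 1600012F09Rik and Rcbtb2. For the β subunit genes they were Usp21 (0.90), Coq5 and Gdap2 for Scn2b, Lin7c (0.87), Cfl2 and Scd2 for Scn3b, and Notch1 (0.91), Sirpa and Rab5c for Scn4b.

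The other genes of the family in the table that are described are α subunit genes of skeletal muscle, glia and sensory neurons and the leak channel gene Nalcn. Of these 5 genes 3 had a negative difference, against 69.8% of all genes, and none had an unadjusted p under 0.05 (limma). The differences were 0.087 (SE 0.055) for Scn4a of skeletal muscle, -0.0070 for Scn7a, -0.020 for Scn10a and 0.044 for Scn11a of sensory neurons, and -0.060 (SE 0.066) for Nalcn. In wildtype the gene values of Scn4a, Scn7a, Scn10a and Scn11a were 7.47, 6.54, 7.32 and 7.17. All were below the intron limit, which is 9.51 on this scale, so that their differences are those of dim signals. The members Scn1a, Scn2b, Scn9a and Scn4b, with wildtype means of 9.39, 8.74, 8.29 and 7.29, were below this limit too. Of 18 listed partners of the channels, such as the anchor Ank3, the FGF homologous factors and the calmodulins, 16 were measured. Of these 11 had a negative difference, against the same 69.8%, and none an unadjusted p under 0.05 (limma), with Cntn1, an adhesion protein that binds β subunits, at -0.095 (SE 0.052) and Calm3, a calmodulin gene, at -0.090 (SE 0.048), lower in 6 of 6 litters against 1.6% of all genes.

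Of 8 listed regulators of the transcription or splicing of channel genes, 5 were measured and 4 had a negative difference, against 69.8% of all genes. Rest, the repressor of neuronal genes outside neurons, was the only one of the 5 with an unadjusted p under 0.05, which 6.16% of all genes had. Wildtype brains had a value of 8.65 ± 0.068 (SD, n = 6) and KIS-ko brains one of 8.50 ± 0.16, with a difference of -0.15 (SE 0.066, unadjusted p = 0.045, adjusted p = 0.685, limma), negative in 5 of 6 litters. The splicing factor Mbnl2 was at -0.060 (SE 0.054), and Scnm1, a splicing factor known as a modifier of Scn8a, was at 0.023 (SE 0.052).

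No marker of another cell type passed the adjusted threshold (limma), and 69.8% of all genes had a negative difference. A negative difference was found for 4 of 4 astrocyte markers, from -0.27 for Gfap (SE 0.081, unadjusted p = 0.0069, adjusted p = 0.685, limma) to -0.086, with a median of -0.096. It was found for 3 of 3 markers of GABAergic neurons (median -0.070), 3 of 3 of Purkinje cells (median -0.11) and 3 of 3 of endothelium (median -0.052). For the 4 neuronal markers the median was -0.045, close to that of all genes, and 1 of 3 markers each of meninges and of erythroid cells had a negative difference. In the other sets it was found for 2 of 3 striatal, 3 of 4 oligodendrocyte, 1 of 2 oligodendrocyte precursor, 2 of 3 microglial, 3 of 5 muscle and 3 of 5 sensory neuron markers, and for 2 of 2 of glutamatergic neurons (median -0.036). Purkinje cells held the only other marker with an unadjusted p under 0.05 (limma), Car8, at -0.12, which makes 2 of 47 markers (4.26%), against 6.16% of all genes. The part of these cell types in the values of the sodium channel genes was not tested.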

How the data were processed

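Total RNA of 12 newborn brains was hybridized to Affymetrix mouse exon arrays, 1 array per animal. The authors normalized the arrays by quantiles at the exon level and estimated probeset signals with PLIER in the Expression Console. The deposited table holds the resulting linear intensity of each probeset (versions and genome build are not given in the sources used here). Precision is limited by the number of arrays and by signal over background, read from 5222 intron control probesets. No column of another sample was present, no pair of arrays was identical, and any 2 arrays correlated with r from 0.978 to 0.992 on the log2 scale.

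Following the methods, probesets whose relative standard deviation exceeded 0.4 in wildtype or in KIS-ko were dropped, which left 205469 main probesets of 17279 genes. Gene values, probesets and splicing indexes (genes with at least 3 probesets) were fitted with limma 3.58.1 (R 4.3.3), blocking on litter, and p-values were adjusted by Benjamini-Hochberg over all features at 0.05. Labels and methods give each pair its litter. After subtraction of the genotype means, littermates correlated with r of 0.27, -0.059, 0.14, -0.11, 0.47 and -0.11 in litters 1 to 6. Scripts were tested on simulated data with independent noise and without litter effects or shifts of whole arrays. Such a test checks the code and not the power of the tests at the differences seen here.

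The members and lists were chosen with earlier results of these data known. Named are all members, the family genes (some of which are not reported here), the partners and regulators with a p under 0.05 or among the 2 of largest absolute difference, the probeset of largest splicing index difference and the 3 most alike genes of each member, and Uhmk1. Scnm1, the markers, the last Scn2b probeset and those listed under a second transcript accession were named after their values were seen. The alternatives were no replicate block, pseudocounts of 1 and 64, no scatter filter, dim probesets left out, probesets matching 1 place, 2 scalings of the arrays, medians of probesets, trended and robust moderation, the fold change of the methods, and each litter left out. The mean β less α value has no test. Leaving out litters 4 and 6 together and setting differences against the median gene were added after the data were seen. RefSeq promoter windows (GRCm38.p6) were matched for 6 of the 8 members. Plots were drawn with matplotlib 3.10.9.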

Additional observations from a re-analysis of the deposited data

Results flagged for a closer look

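In a search of 23 sets of 6 values of the sodium channel genes, 2 held a value far from the others. Chance alone flags about 1 in 20 such groups. The Scn3a gene value of the KIS-ko animal of litter 4 was 10.76 (log2), with the next at 10.43, and its wildtype littermate was the highest wildtype animal. The Scn9a gene value of the wildtype animal of litter 5 was 7.69, with the next at 8.30, and its KIS-ko littermate was the lowest KIS-ko animal. Scn9a rests on 1 probeset with a signal below the 95th percentile of intron controls. The causes were not tested.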

How the results depend on the processing

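The differences of Scn1a, Scn3a and Scn2b stayed negative under all 19 alternatives, with no adjusted p under 0.05, and lay between -0.26 and -0.093, between -0.13 and -0.038, and between -0.29 and -0.086. The number of member genes with an unadjusted p for genotype under 0.05, 1 in the report, was 0 in the fit without the replicate block, without the scatter filter and under both scalings of the arrays (5.89%, 5.90%, 6.36% and 7.09% of all genes), between 0 and 3 when 1 litter was left out, and 2 (Scn1a and Scn2b) without litters 4 and 6, where 12.1% of all genes had such a p. Without litter 4 it was 3 (Scn1a, Scn3a and Scn2b), against 22.6% of all genes. The number for litter, 2 in the report, was 1 without the scatter filter, with dim probesets left out, with the median over probesets and without litters 4 and 6 (10.6%, 18.5%, 10.05% and 18.4% of all genes), and between 0 and 2 when 1 litter was left out (0 without litter 5, against 3.91% of all genes, and 1, Scn9a, without litter 4, against 15.8%). The number of member probesets for the exon profile, 2 in the report, was 1 without the replicate block, with dim probesets left out (of 34 tested), with trend and robust and without litters 4 and 6 (5.61%, 4.93%, 5.97% and 8.39% of all probesets), and between 1 and 6 when 1 litter was left out (4 of 68 without litter 4, against 12.1% of all probesets, and 6 without litter 5, against 6.69%). The sign turned for Scn8a with arrays centred (0.024), quantile-normalized again (0.015) and relative to the median gene (0.0054), and for Scn3b in the same settings (0.035, 0.0061 and 0.016). It turned for Scn4b with the median over probesets (-0.076). With 1 litter left out the difference lay between -0.056 and 0.0069 for Scn8a, between -0.16 and 0.0041 for Scn9a, between -0.048 and 0.0028 for Scn3b and between -0.031 and 0.11 for Scn4b. The balances kept their sign in every alternative run, and with all 6 litters none had an adjusted p under 0.05. Such an adjusted p would take the smallest possible p in both balances at once. With 1 litter left out the exact test cannot give a p under 0.0625, and without litters 4 and 6 none under 0.125. That of Scn3a over Scn1a lay between 0.018 without litter 1 and 0.13 without litter 4, and that of Scn3b over Scn2b between 0.094 without litter 1 and 0.28 with the median over probesets. With dim probesets left out Scn2b rested on its first probeset alone, whose mean lay above the limit in wildtype and below it in KIS-ko, so that the larger change of 0.16 there was not independent of the filter. The mean of the β less that of the α subunit genes turned sign with the median over probesets (-0.034) and otherwise lay between 0.0020 without litter 6 and 0.10 without litter 4. The fold change of the methods was from 0.909 for Scn1a to 1.04 for Scn4b. With dim probesets left out no value could be given for Scn9a and Scn4b. The cause of these changes was not tested. The replicate block changed no adjusted call of a member.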
